A study of Mus musculus with 3 samples.

Results

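The duct keratins Krt7, Krt8, Krt18 and Krt19 and the secreted duct protein osteopontin, encoded by Spp1, were followed as 5 of the 24318 genes with an identifier in a mouse H3K36me3 CUT&Tag series of the fetal pancreas. They were chosen by identifier: ENSMUSG00000023039 for Krt7, ENSMUSG00000049382 for Krt8, ENSMUSG00000023043 for Krt18, ENSMUSG00000020911 for Krt19 and ENSMUSG00000029304 for Spp1. Each had a value above 0 in every file and column, so none was lost to a filter. CUT&Tag uses an antibody to direct a transposase to a chromatin mark, where it cuts and tags the DNA. Epithelial cells were sorted on the surface protein EpCAM from the pancreas of wild-type (WT) C57BL/6 embryos on embryonic day E11.5, day E13.5 or day E15.5, with 1 library per stage and 3 in all. All groups share strain, genotype and antibody, and the labels do not say how many embryos were pooled. Without a second library of a stage or a library made without the antibody, the spread between embryos and the background were not measured, and every difference below is a size with no test.

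H3K36me3 is laid down behind elongating RNA polymerase and lies over the bodies of transcribed genes. Keratins are the intermediate filaments of epithelia and assemble only as pairs of a type II chain, such as Krt7 and Krt8, with a type I chain, such as Krt18 and Krt19. Krt8 and Krt18 form the first pair of simple epithelia, and Krt7 and Krt19 mark ducts, Krt19 being the standard duct marker of the adult pancreas. Osteopontin is a secreted glycoprotein that binds integrins and CD44 and is enriched in the duct cells of the adult pancreas.

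Each file gives 3 signal columns per gene, headed GB, PR and SE, which the headers do not spell out. The values are means over a window, so they can be compared between genes per position. PR and SE behaved as windows of 6000 and 12000 positions, and the SE sum was below the PR sum in 0 of 25491 rows, so SE was read as a window that holds PR. The sums were whole multiples of 1 smallest unit per library, called a step here. The GB window of a gene, worked out from these steps, was 15404 positions for Krt7, 7632 for Krt8, 3811 for Krt18 and 5943 for Spp1. Those 4 values equal the gene lengths in RefSeq GRCm38.p6, and the value for Krt19, 5116, is 1 position short of the RefSeq length of 5117. GB is therefore read as the whole gene. Whether PR shares positions with GB is not known, so the 3 columns are not independent readouts.

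Krt7, Krt8 and Krt18 lie on chromosome 15 of GRCm38.p6, the build called mm10 in the submitters' notes. Krt7 spans chr15:101412403-101427806, Krt8 chr15:101996711-102004342 on the minus strand and Krt18 chr15:102028216-102032026. That chromosome holds 26 protein-coding Krt genes, 25 of them from Krt7 to Krt18, and 23873 positions separate Krt8 from Krt18. The type I gene Krt18 thus sits beside its type II partner, whereas Krt19 lies at chr11:100140810-100145926, on a chromosome with 27 protein-coding Krt genes. Spp1 lies at chr5:104435111-104441053.

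Over the gene body, Krt8 and Krt18 stood out at E15.5. GB signal of Krt8, in deposited units throughout, was 0.00543 in the E11.5 library, 0.0156 in the E13.5 library and 0.135 in the E15.5 library. GB signal of its partner Krt18 was 0.00391, 0.00835 and 0.0733 in the same order. Both genes were highest in the E15.5 library and lowest in the E11.5 library. As a percentile among all identified genes of the same library, Krt8 stood at 59.9, 94.8 and 99.6 and Krt18 at 45.8, 80.2 and 98.8. At E15.5 Krt8 ranked 96 of 24318 genes, and 7 of the 6286 genes whose recovered window was within 2-fold of its own. Krt18 ranked 284 of 24318 and 110 of the 4092 genes of like window. The 99th percentile of GB at E15.5 was 0.0801, so Krt8 lay above it and Krt18 below.

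**Figure D1:**
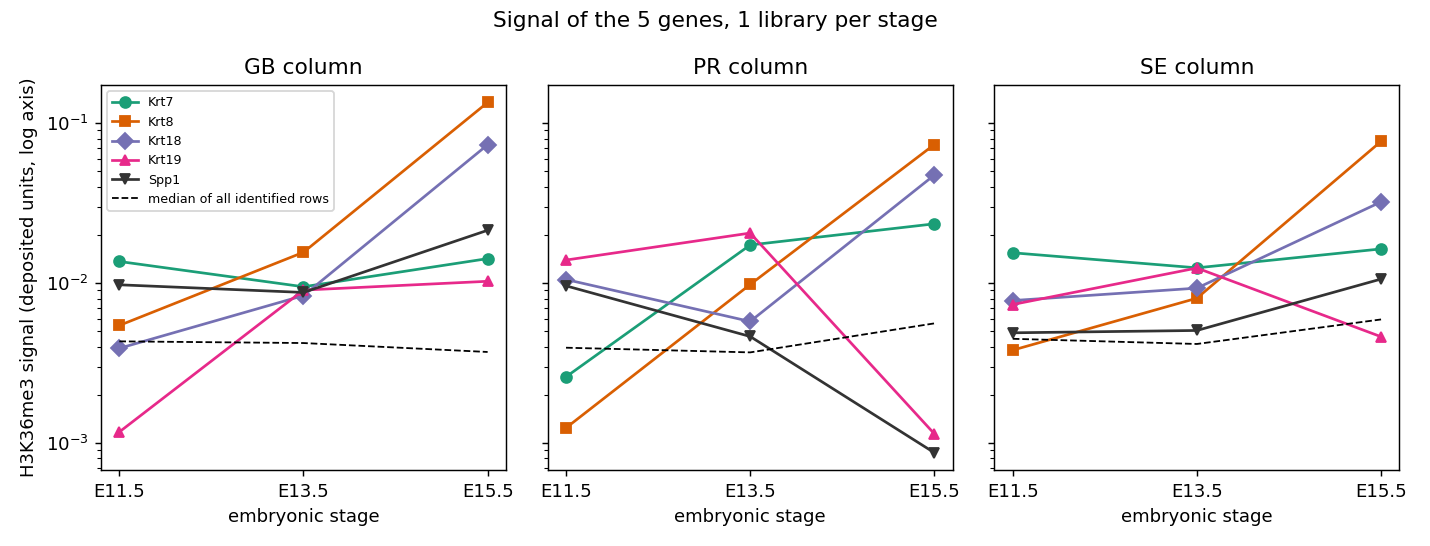
H3K36me3 signal of Krt7, Krt8, Krt18, Krt19 and Spp1 by embryonic stage (1 library each), in deposited units on a log axis, for the GB, PR and SE columns; the dashed line is the median of all identified genes. Krt8 and Krt18 are the highest of the 5 in all columns at E15.5, while Krt19 and Spp1 lie below the median in PR at that stage.

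The other genes had lower gene body signal at E15.5. Spp1 had GB 0.00975, 0.00873 and 0.0214 in stage order, at percentiles 83.6, 81.9 and 90.9. The E15.5 library was the highest in value and in rank, and the earlier ones were close to each other. Krt19 had GB 0.00117, 0.00903 and 0.0103, at percentiles 21.8, 83.0 and 77.7. The duct marker was thus below the median of 0.00432 at E11.5 and above it afterwards. Krt7 had GB 0.0136, 0.00948 and 0.0142, at percentiles 91.7, 84.6 and 84.4, and was the highest of the 5 genes at E11.5. From highest to lowest, GB ran Krt7, Spp1, Krt8, Krt18 and Krt19 at E11.5. At E15.5 the order was Krt8, Krt18, Spp1, Krt7 and Krt19. At E13.5 Krt7, Krt19, Spp1 and Krt18 lay between 0.00835 and 0.00948, and no order is read among them. The number of the 5 genes above the median of all genes was 3, 5 and 5 in stage order, and the median of their GB percentiles was 59.9, 83.0 and 90.9.

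The rank also depends on the genes it is set against. Against genes of like window alone, the median GB percentile of the 5 was 45.2, 70.5 and 80.7. A window was recovered for 12942 of the 24318 genes, and only genes above 0 in at least 2 libraries could get one. Genes without signal are thus left out of that set as well, and window length is not its only difference. Against all genes above 0 in the same library the median was 53.9, 80.1 and 88.5. Against genes of like window at E15.5, Krt19 stood at 57.7 and Spp1 at 79.5, while Krt8 stood at 99.9 and Krt18 at 97.3.

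**Figure D2:**
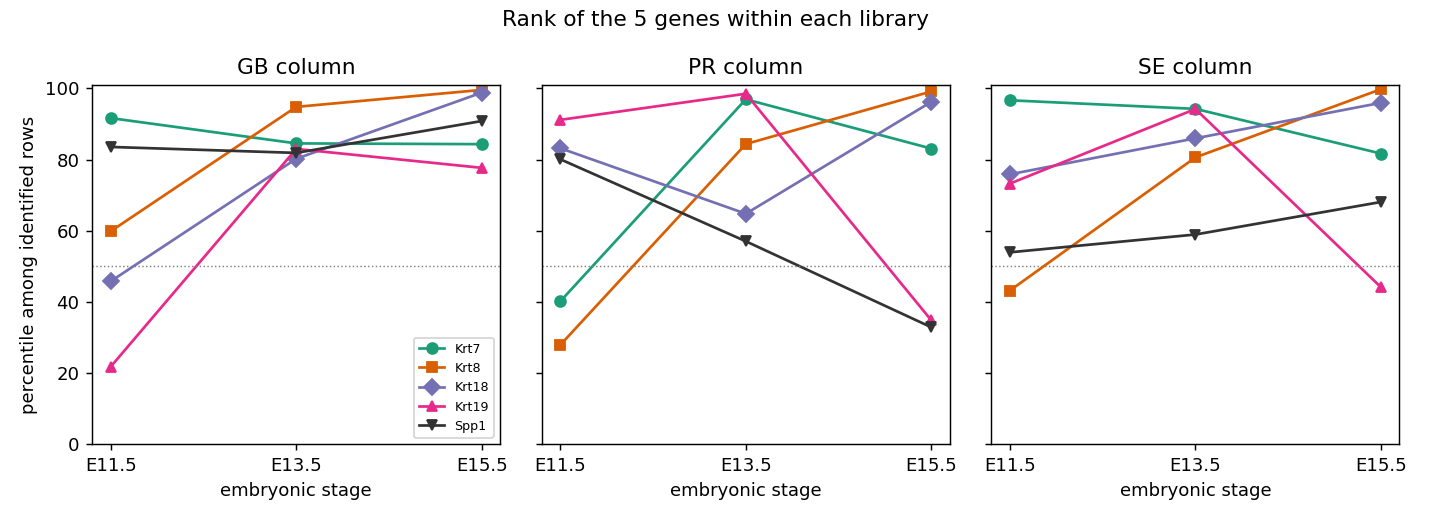
Percentile of each of the 5 genes among all identified genes of the same library, for GB, PR and SE by embryonic stage; the dotted line marks the midpoint. Krt8 stands higher at each later stage in all columns, at 99.6 in GB, 99.2 in PR and 99.8 in SE at E15.5, while Krt19 stands at 34.8 in PR and 44.1 in SE there.

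How much signal lies behind these values differed widely. The summed GB signal of Krt8 was 256, 710 and 6312 steps in stage order, over 7632 positions. How many positions 1 step stands for is not known, so the covered share of a gene cannot be read from these sums. For Krt18 the sums were 92, 190 and 1714 steps over 3811 positions. Krt19 had the thinnest body signal, with 37 steps at E11.5 over 5116 positions. Its GB sums were 276 steps at E13.5 and 322 at E15.5. Spp1 had 358, 310 and 780 steps, and Krt7 had 1298, 872 and 1344 steps over its longer window. The labels state the mean depth for the series and not for each library, and how many reads make a step is unknown, so these sums carry no counting interval.

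The first comparison set the latest library against the earliest. GB of Krt8 was 24.8 times higher at E15.5, a log2 ratio of 4.40 after adding 0.001 to both values, as in all log2 ratios here. GB of Krt18 was 18.8 times higher, with a log2 ratio of 3.92. Krt19 had a log2 ratio of 2.37, Spp1 of 1.06 and Krt7 of 0.06. On this log2 scale, which makes low values look closer and is used for every 2-fold count here, 4 of the 5 genes were at least 2-fold higher and 0 were at least 2-fold lower. Among the 16048 genes whose higher library reached the floor, set at the median GB over genes and libraries, 26.5% were at least 2-fold higher and 22.8% lower. The median log2 ratio was 2.37 for the 5 genes and 0.14 for the 16048. Krt8 ranked 415 and Krt18 ranked 582 among those ratios, Krt19 1575 and Spp1 4095. Among genes of like window above the floor, 37.1% were at least 2-fold higher for Krt8, 44.7% for Krt18 and 42.1% for Krt19. The share was 40.3% for Spp1 and 27.3% for Krt7. Percentiles of the ratio on that scale were 99.1 for Krt8, 93.4 for Krt18, 82.1 for Krt19 and 60.7 for Spp1. Among the 16048 genes they were 97.4, 96.4, 90.2 and 74.5. Krt8 and Krt18 kept log2 ratios of at least 3.74 and 3.14 under each pseudocount and scaling run. Spp1 did not reach 2-fold when libraries were divided by their mean GB (log2 0.54), after quantile normalization (0.48) or with a pseudocount of 0.005 (0.84).

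A level and a ratio both as large as those of Krt8 were found in 70 genes, Krt8 included. Of these, 53 were listed at 0 at E11.5. A window was recovered for 31 of the 70, and 5 of those 31 had one between 3000 and 32000 positions. For Krt18 the count was 181 genes, 96 of them listed at 0 at E11.5. A window was recovered for 116 of the 181, and 24 of those 116 had one in that range. Windows above 32000 positions were not searched.

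**Figure D3:**
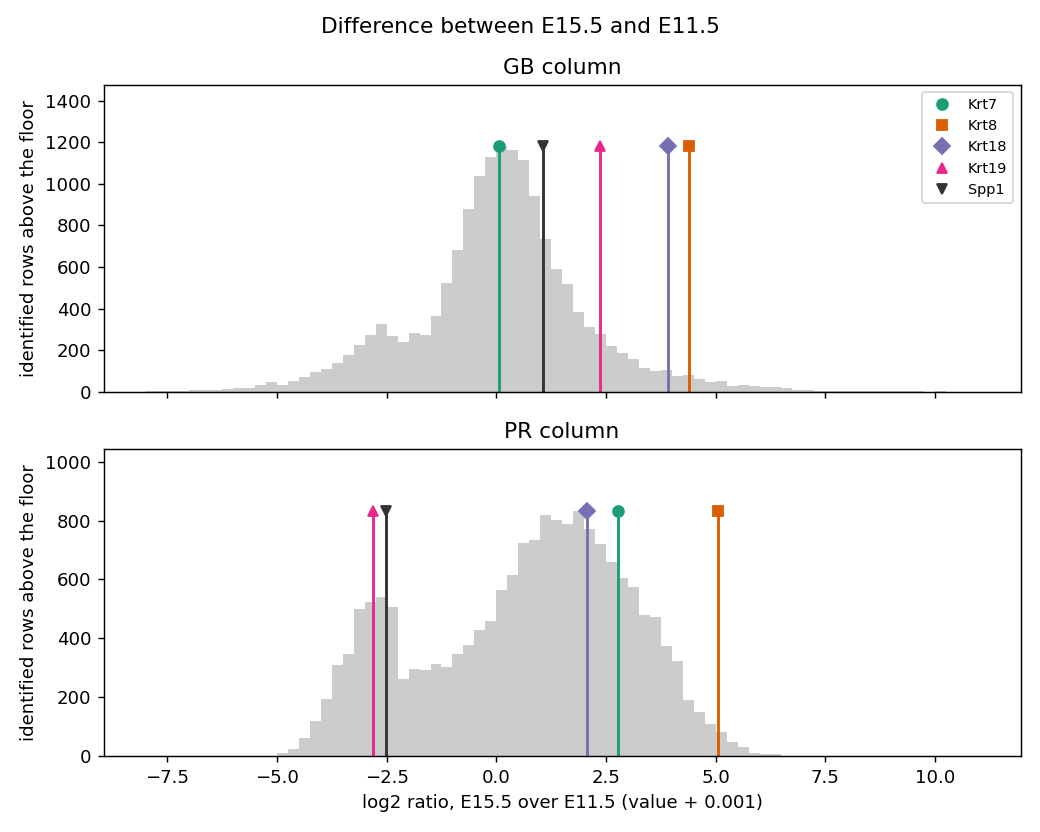
Histograms of the log2 ratio E15.5 over E11.5 (0.001 added to each value) over identified genes above the floor, for GB (16048 genes) and PR (17716 genes), with vertical lines for the 5 genes. In GB, Krt8 (4.40) and Krt18 (3.92) lie in the right tail and Krt7 (0.06) near the centre; in PR, Krt19 (-2.80) and Spp1 (-2.50) lie in the left peak.

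The steps between stages differed among the genes. For E13.5 over E11.5, GB log2 ratios were 2.21 for Krt19, 1.37 for Krt8 and 0.93 for Krt18, against -0.14 for Spp1 and -0.48 for Krt7. Krt19 and Krt8 were at least 2-fold higher, 2 of the 5 genes, and 0 were lower, where the shares of 16346 genes were 17.2% higher and 19.4% lower. Among genes of like window, 25.7% were higher for Krt19 and 21.3% for Krt8. Krt18 was 2.14 times higher in deposited values and missed 2-fold only with the 0.001 added; its log2 ratio was 1.08 with a pseudocount of 0.0001, 1.04 after dividing by the mean and 1.19 after quantile normalization. Krt8 was at 0.98 with a pseudocount of 0.005. For E15.5 over E13.5 they were 3.03 for Krt8, 2.99 for Krt18, 1.20 for Spp1, 0.54 for Krt7 and 0.17 for Krt19. Here 3 of the 5 were at least 2-fold higher and 0 lower, where 27.6% of 16006 genes were higher and 22.1% lower. Among genes of like window the share higher was 39.4% for Krt8, 46.9% for Krt18 and 42.3% for Spp1. It was 44.2% for Krt19 and 28.4% for Krt7. Spp1 was under 2-fold after dividing by the mean (0.59), which left 2 of the 5, after quantile normalization (0.57) and with a pseudocount of 0.005 (0.94). The small differences of Krt7 and Krt19 turned below 0, to -0.06 and -0.42 after dividing by the mean and to -0.01 and -0.25 after quantile normalization. Krt8 and Krt18 differed most between the later stages, 8.65 and 8.78 times, and Krt19 between the earlier ones, 7.71 times. The earlier value of Krt19 rests on its 37 steps.

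The Krt8 and Krt18 start regions are shown because these partner genes were both highest at E15.5, and that of Spp1 because its PR was lowest and its GB highest there. In deposited values Krt19 was also lowest in PR and highest in GB at E15.5. Its GB percentile, however, was 77.7 there and 83.0 at E13.5. No promoter entry was available for Krt19. Each line runs 5′ to 3′ from 250 bases before to 50 bases from the annotated start, from RefSeq GRCm38.p6. Capitals mark matches, on either strand, to the TATA box TATAAA, the GC box GGGCGG, the CCAAT box CCAAT, the AP-1 site TGANTCA and the RUNX site AACCACA. They lie at chr15:102004293-102004592 (minus strand), chr15:102027966-102028265 (plus) and chr5:104434861-104435160 (plus).
Krt8: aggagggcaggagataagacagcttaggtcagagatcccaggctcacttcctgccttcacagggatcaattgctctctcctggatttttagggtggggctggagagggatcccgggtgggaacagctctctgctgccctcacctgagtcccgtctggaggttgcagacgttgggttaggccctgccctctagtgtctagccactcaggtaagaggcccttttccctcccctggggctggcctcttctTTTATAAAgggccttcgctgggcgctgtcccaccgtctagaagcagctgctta
Krt18: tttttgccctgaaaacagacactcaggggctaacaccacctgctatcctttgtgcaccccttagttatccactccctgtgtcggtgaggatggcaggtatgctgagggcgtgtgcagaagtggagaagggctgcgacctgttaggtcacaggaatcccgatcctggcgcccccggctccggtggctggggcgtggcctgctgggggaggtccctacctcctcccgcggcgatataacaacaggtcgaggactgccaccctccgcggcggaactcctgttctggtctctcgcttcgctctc
Spp1: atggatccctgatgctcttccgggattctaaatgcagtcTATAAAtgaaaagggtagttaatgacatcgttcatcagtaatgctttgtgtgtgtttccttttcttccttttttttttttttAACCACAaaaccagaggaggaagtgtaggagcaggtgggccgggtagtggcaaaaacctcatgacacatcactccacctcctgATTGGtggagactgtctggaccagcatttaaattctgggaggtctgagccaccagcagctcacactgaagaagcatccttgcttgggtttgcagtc

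Krt8 held TATAAA, its first base at -1 from the annotated start, with the overlapping reverse match making up the rest of the capitals. The Krt18 window held no match to any of them on either strand. Spp1 held TATAAA at -211, AACCACA at -129 and CCAAT on the reverse strand at -46. Of 32851 promoter windows of this length, 13.6% held TATAAA, 35.7% GGGCGG, 37.4% CCAAT, 7.81% TGANTCA and 5.27% AACCACA. GC content was 58.0% for Krt8, 61.3% for Krt18 and 45.3% for Spp1, against a median of 52.7% over all windows. A second annotated Spp1 start, further into the gene, held no match. The Krt7 window held 4 matches to GGGCGG and had a GC content of 66.3%. These matches are letters in a window, and no factor was measured.

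In PR the 5 genes divided. Krt8 had PR 0.00124, 0.00980 and 0.0735 in stage order, at percentiles 27.9, 84.4 and 99.2. Krt18 had 0.0105, 0.00575 and 0.0474, at percentiles 83.2, 64.8 and 96.2, so its lowest library was E13.5. Krt7 had 0.00259, 0.0173 and 0.0235, at percentiles 40.2, 97.0 and 83.1. All 3 were highest at E15.5 in deposited value. Krt7 ranked lower there than at E13.5, and its log2 ratio between them, 0.42, turned to -0.16, -0.74 and -0.95 after dividing by the median, dividing by the mean and quantile normalization. Krt19 had 0.0139, 0.0205 and 0.00114, at percentiles 91.2, 98.5 and 34.8. Spp1 had 0.00961, 0.00463 and 0.000868, at percentiles 80.1, 57.0 and 32.9. PR was listed at 0 in 22.1% of genes at E15.5. Among genes above 0 there, Krt19 stood at 16.4 and Spp1 at 13.9. For both genes E15.5 was the lowest library, with 42 steps in PR for Krt19 and 32 for Spp1, against 516 and 356 steps at E11.5.

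For E15.5 over E11.5, PR log2 ratios were 5.06 for Krt8, 2.77 for Krt7, 2.07 for Krt18, -2.50 for Spp1 and -2.80 for Krt19. Thus 3 of the 5 were at least 2-fold higher and 2 at least 2-fold lower. PR differed this much in most genes: of 17716 above the PR floor, 50.0% were higher and 26.0% lower, so these counts are close to the background. Krt8 was the exception in size, ranking 166 of 17716 with a PR 59.2 times higher at E15.5, although its PR sum at E11.5 was only 46 steps. Quantile normalization left Krt18 at 0.87, under 2-fold. For E15.5 over E13.5, PR was at least 2-fold higher in Krt8 and Krt18 and lower in Krt19 and Spp1, where 52.2% of 17609 genes were higher and 24.7% lower. Spp1, at -1.59, was under 2-fold with a pseudocount of 0.005 (-0.71), and its later value rests on 32 steps. The Krt19 ratio of -3.33 was at percentile 4.11 of those genes. For E13.5 over E11.5, PR was at least 2-fold higher in Krt7 (2.35) and Krt8 (2.27) and in 0 of the 5 lower, where 28.8% of 16911 genes were higher and 32.8% lower. Spp1 was at 0.482 of its E11.5 value as deposited, but its log2 ratio was -0.91 with the 0.001 added and -1.04 with a pseudocount of 0.0001.

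In SE, Krt8 and Krt18 were again the highest of the 5 genes at E15.5. SE of Krt8 was 0.00380, 0.00804 and 0.0770 in stage order, and ranked 49 of 24317 genes at E15.5. Krt18 had SE 0.00777, 0.00929 and 0.0322, at percentile 96.0 at E15.5. Krt7 had 0.0155, 0.0124 and 0.0163, at percentiles 96.7, 94.3 and 81.7. Its values were close to each other, while its rank was lowest at E15.5, where the median of all genes was 0.00592, against 0.00448 at E11.5. Krt19 had 0.00734, 0.0124 and 0.00462, and Spp1 had 0.00488, 0.00505 and 0.0106, at percentiles 54.0, 59.0 and 68.1.

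The share of the SE sum that lay in PR separated Krt19 and Spp1 from the other members at E11.5 and E15.5. At E13.5 Spp1 lay between Krt18 and Krt8. For Krt19, PR held 94.8%, 82.7% and 12.3% of the SE sum in stage order. For Spp1 it held 98.3%, 45.9% and 4.10%. Both genes thus had nearly all SE signal in PR at the first stage and little at the last. Over all genes with SE above 0 the median share was 52.0%, 50.3% and 71.5%, so it was higher at E15.5 where these genes were lower. Krt7 had shares of 8.38%, 69.5% and 71.8% and Krt8 of 16.3%, 60.9% and 47.8%. Krt18 had 67.7%, 30.9% and 73.6%. Such shares are wide over all genes, from 28.2% at the lower quartile to 99.6% at the upper one at E15.5. Krt19 stood at percentile 19.1 and Spp1 at percentile 15.4 of the shares at that stage, so low shares were not rare. At E11.5 the upper quartile was 80.4%, and Krt19 and Spp1 stood at percentiles 87.1 and 90.9. High shares were thus not rare at E11.5 either. The share is taken within a library, where a scale factor of that library cancels.

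**Figure D4:**
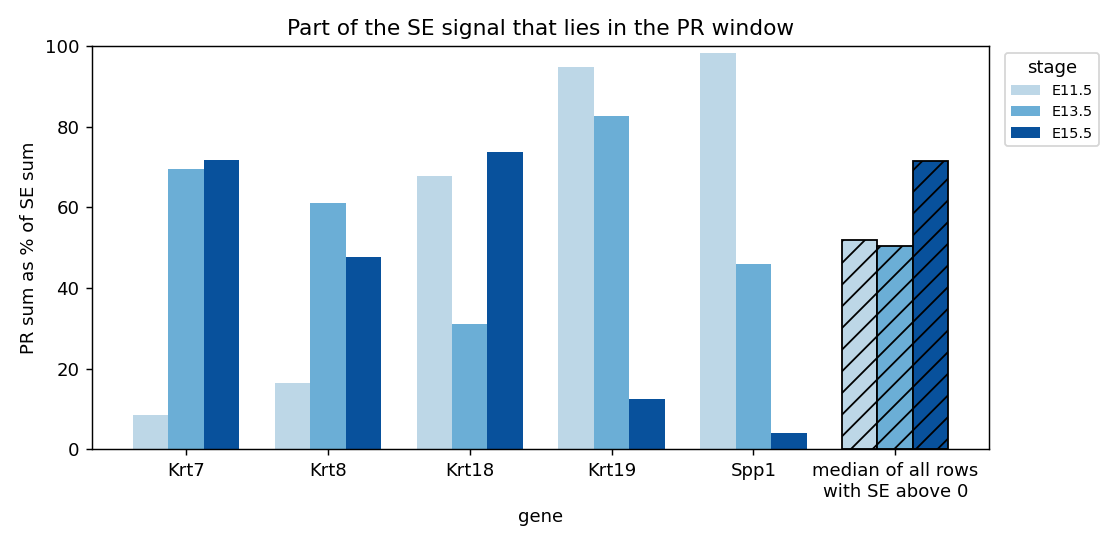
PR sum as a percentage of the SE sum for each of the 5 genes by embryonic stage (bars, 1 library each), with the median over all genes with SE above 0 hatched. Spp1 and Krt19 stand at 4.10% and 12.3% at E15.5, whereas the median over all genes is 71.5% there. Their shares lie at percentiles 15.4 and 19.1 of all genes with SE above 0.

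PR relative to GB was lowest at E15.5 in Krt19 and Spp1, also when PR was set against SE without PR (0.141 for Krt19 and 0.0428 for Spp1 at E15.5). The ratio of PR to GB in Krt19 was 11.9 at E11.5, with only 37 GB steps. At E13.5 it was 2.27, and at E15.5 it was 0.111, with only 42 PR steps. In Spp1 it was 0.985, 0.530 and 0.0406 in stage order, the last with only 32 PR steps. In Krt8 it was 0.229, 0.629 and 0.546, so PR stayed below GB, and in Krt18 it was 2.69, 0.689 and 0.646. For Krt18 the order depends on the measure, since PR over SE without PR was 2.10, 0.448 and 2.79, highest at E15.5. In Krt7 it was 0.190, 1.82 and 1.65. The median over all genes with GB above 0 was 0.770, 0.740 and 1.08. Among those genes the E15.5 ratio of Krt19 stood at percentile 19.9 and that of Spp1 at 17.0. At E15.5 the SE sum of Spp1 equalled its GB sum, at 780 steps each, whereas the GB sum of Krt8 was 644 steps above its SE sum. Part of the Krt8 gene therefore lies outside SE.

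Likeness between genes was measured as the distance over 9 values, the log2 of GB, PR and SE plus 0.001 at the 3 stages. Krt18 was at distance 3.21 from Krt8 and ranked 180 of 24316 genes in likeness to it. Seen from Krt18, Krt8 ranked 1372. Krt19 was nearer to Spp1 (distance 3.61) than to any of the other keratins, which were at 5.29 or more. Many other genes were nearer still: Spp1 ranked 1243 of 24316 in likeness to Krt19, and Krt19 ranked 2336 in likeness to Spp1. Krt7 was nearest to Krt18 among the 5, at 3.93, where Krt18 ranked only 4802 in likeness to it. Median distances over all genes ran from 5.30 for Spp1 to 8.44 for Krt8. The most similar gene to Krt8 was ENSMUSG00000022884 at distance 1.12, with GB 0.00583, 0.0114 and 0.112 in stage order. The most similar gene to Krt18 was ENSMUSG00000036854 at distance 0.985, with GB 0.00435, 0.00830 and 0.0502. The files pair no names with these identifiers.

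Other keratins, osteopontin receptors and markers of epithelium, mesenchyme, endothelium, blood and nerve could not be looked up, because the reference tables match 0 of the deposited identifiers. The labelled cell type was therefore not checked against its markers. The GB column covered 24318 genes with a mean of 0.00631, 0.00588 and 0.00924 in stage order, and was listed at 0 in 12.9%, 14.8% and 20.3% of them. Its 99th percentile over genes was 0.0348, 0.0320 and 0.0801. The distribution was thus wider at E15.5, and quantile normalization makes it alike between libraries. GB log2 ratios of E15.5 over E11.5 were then 3.74 for Krt8, 3.32 for Krt18 and 2.43 for Krt19. Those of Spp1 and Krt7 were 0.48 and -0.51. As deposited they were 4.40, 3.92, 2.37, 1.06 and 0.06 in the same gene order. The cause of the wider distribution was not tested. In these sorted cells a change in the share of cells that carry the mark and a change in the mark per cell cannot be told apart.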

How the data were processed

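H3K36me3 CUT&Tag signal came from 3 libraries, 1 for each of E11.5, E13.5 and E15.5, grouped by the labels' source names. The series' design text spells the middle stage differently, and the sample labels were followed. Bowtie2 2.4.2 and mm10 are named, per the submitters' processing notes. The authors deposited, per the file headers, signal in columns headed PR, GB and SE, which behaved as means over a window. Filtering, scaling between libraries and gene models are not given in the sources used here. Of 25493 rows, 1175 (4.61%) had no identifier and were left out of every ranking, and 2 had an empty SE. Symbols of the 5 genes came with their identifiers.

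Values were used as deposited. The step of each library was fitted to PR sums, at 0.16188, 0.16743 and 0.16292 in stage order. At a tolerance of 0.1 steps 100.0% of PR and SE sums above 0 were whole. GB windows from 40 to 32000 positions were searched, for genes above 0 in at least 2 libraries. Percentiles are the share of genes below, with ties shared equally. Ratios are log2(later + 0.001) minus log2(earlier + 0.001), and a gene counted where the higher library reached the column's median over genes and libraries, 0.00413 for GB and 0.00407 for PR. Window recovery and ratios were tested on data simulated only from genes whose window had already been recovered, so genes without one were not covered. The genes, lists and alternatives were chosen with earlier results of these data known. The naming rule took the 5 genes, companion lists that could not be matched, and the nearest gene to each, of which at most 2 identifiers are printed. Alternatives were other pseudocounts, scalings, floors, thresholds and comparison genes. Python 3.11.15, numpy 2.4.6 and pandas 2.3.3 were used.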

Additional observations from a re-analysis of the deposited data

How the results depend on the processing

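The alternatives gave 372 values for 120 results: 246 lay within 1.5 times the main value or 5 percentile points, 126 lay further off, and 0 ratios of at least 2-fold changed sign. Dividing each library by its mean, and comparing PR and SE with genes of like window, were added after seeing the data. With 1 library a stage no spread, test or leave-one-out value exists. No paired analysis was possible because a stage is a single library. The cause of a move was not tested unless the setting's construction gives it.

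Against genes of like window the median percentile of the 5 genes became 45.2, 70.5 and 80.7 for GB in stage order, 74.2 for PR at E11.5, and 62.4 and 77.6 for SE at E11.5 and E13.5. Against genes above 0 it was 53.9 for GB at E11.5. SE without PR gave 60.1, 68.6 and 87.9. GB log2 ratios of E15.5 over E11.5 became 3.74 for Krt8 and 3.14 for Krt18 with a pseudocount of 0.005, which shrinks ratios by construction, and 3.74 and 3.32 after quantile normalization. The median of the 5 genes became 3.03 with a pseudocount of 0.0001 and 1.31 with 0.005. For E15.5 over E13.5 the GB median became 0.59 after dividing by the mean and 0.57 after quantile normalization. The PR median of that pair, which is the ratio of Krt7, was 0.42 and changed sign, to -0.74 and -0.95 under these scalings and to -0.16 after dividing by the median, and for E15.5 over E11.5 it became 1.03 after dividing by the mean and 0.87 after quantile normalization. These moved the median PR ratio of all genes above the floor by -1.10 and -1.01 for E15.5 over E13.5, and that of GB by -0.57 and -0.25. Dividing by the median moved them by -0.54 and 0.16. A 1.5-fold threshold counted 2 genes lower in PR for E13.5 over E11.5, against 0. PR over SE without PR gave medians of 2.10, 1.56 and 0.915 in place of 0.985, 0.689 and 0.546 for PR over GB. The GB ratio of Krt7 for E15.5 over E11.5 lay between -0.51 and 0.26 over the settings run.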
